A study of Mus musculus with 12 samples.

Results

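Immediate early genes were followed in RNA-seq libraries of lung lymphatic endothelial cells (LECs) as a set of 10: the AP-1 genes Fos, Fosb, Jun, Junb and Atf3, the zinc finger factor genes Egr1, Egr2 and Klf6, the nuclear protein gene Ier2 and the phosphatase gene Dusp1. They are 10 of 52636 Ensembl identifiers in the count files, matched by their symbols in GENCODE M21, and all 10 were among the 21440 genes that passed the filter on low counts. The set was chosen from earlier results of these same libraries, in which Egr1 was lower after acute smoke. Differences after acute smoke are therefore given below as a description of the 10 genes, with no test.

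The libraries came from male and female Prox1-EGFP mice, in which regulatory sequence of the lymphatic factor gene Prox1 drives a green fluorescent reporter, and all mice carried it. There were 2 libraries of 8 weeks of cigarette smoke (acute CS), 2 of their age-matched room air controls (acute RA), 5 of 24 weeks or more of smoke (chronic CS) and 3 of their controls (chronic RA), with smoke begun at 6 weeks of age. The labels write these as 8wk_CS, 8wk_RA, Aged_CS and Aged_RA and give the times as ages, whereas the methods of the study give them as exposures. Each acute library pooled the cells of 2 to 5 mice and each chronic one held a single mouse, so pooling and exposure length cannot be told apart. All lungs were digested with enzymes, and cells were sorted as GFP and CD31 positive and as negative for EpCAM and for a cocktail of blood lineage markers, a gate that should remove leukocytes and epithelium.

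Immediate early genes are transcribed within minutes of a stimulus, without the need for new protein. Growth factors, stretch, flow and stress reach them through kinases of the MAPK family and through the factors SRF, ELK and CREB that sit on their promoters, and their mRNAs are short-lived. Fos and Jun proteins pair as the transcription factor AP-1, EGR proteins bind GC-rich sites, and the DUSP1 phosphatase switches MAPK off again. In endothelium they are known responders to shear stress, and tissue digestion for cell sorting is itself a known inducer. No library here was made without digestion, so how much of each level arose during isolation was not tested.

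Of the 10 genes, 5 (Dusp1, Fos, Egr1, Junb and Jun) were among the most abundant transcripts of the sorted cells. Expression is given in CPM, counts scaled to a common library size with TMM factors. Together the set took up 1.70 to 2.0% of all counts in acute RA, 1.02 to 1.06% in acute CS, 2.21 to 2.64% in chronic RA and 2.15 to 2.89% in chronic CS. The largest member was Dusp1 or Fos in each of the 12 libraries. Among all genes tested, ranked by mean CPM in chronic RA, Dusp1 stood at rank 4, Fos at rank 5, Egr1 at rank 10, Junb at rank 11 and Jun at rank 16. At the other end, Fosb stood at rank 1840, Atf3 at rank 2390 and Egr2 at rank 6255.

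Compared per length of transcript, the order of the group means was the same in acute RA, chronic RA and chronic CS. In chronic RA (FPKM over the union of exons, mean ± SD, n = 3) Fos was at 2317 ± 463, Dusp1 at 1739 ± 94.3 and Junb at 1709 ± 210. Next came Jun at 1051 ± 95.5, Egr1 at 953 ± 121 and Ier2 at 741 ± 118. Klf6 was at 153 ± 20.4, Atf3 at 46.6 ± 8.70, Fosb at 19.7 ± 7.28 and Egr2 at 10.2 ± 0.310. Dusp1 and Junb lay within their SDs of each other, as did Jun and Egr1, so the order inside these pairs is not settled. In acute CS the order differed, with Dusp1 (924 FPKM) above Fos (750), Ier2 (420) above Egr1 (255) and Egr2 (12.2) above Fosb (8.16). Egr2 (SD 1.73) and Fosb (SD 3.84) lay within their SDs of each other, and at 14 and 13.5 FPKM with the longest transcript. The order of these 2 is thus not settled either. With the longest transcript as the length in place of the exon union, Fosb was at 32.6 FPKM and Dusp1 at 2490 FPKM, which is above Junb at 2173 FPKM and below Fos at 2585 FPKM.

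Promoter windows of 250 bases before the start were read for 8 members from the RefSeq table used here (GRCm38.p6), and those of Egr1 and Ier2 were not analysed here. They are shown for Fos, Fosb, Junb and Dusp1, which like Egr1 were lower in both acute CS libraries than in either acute RA library, and for Klf6, which was higher in every chronic CS library. Each is written 5′ to 3′ on the strand of the gene. Capitals mark matches on either strand to CRE (TGACGTCA), to its half-site TGACG, to the EGR motif GCGGGGGCG or to the TATA box TATAAA. The CArG box and AP-1 (TGACTCA) were searched as well and had no match in these 5 windows. Only exact matches were counted, and bases farther than 250 before the start were not read, so a missing match does not mean a missing site.
Fos, chr12:85473640-85473889, plus strand: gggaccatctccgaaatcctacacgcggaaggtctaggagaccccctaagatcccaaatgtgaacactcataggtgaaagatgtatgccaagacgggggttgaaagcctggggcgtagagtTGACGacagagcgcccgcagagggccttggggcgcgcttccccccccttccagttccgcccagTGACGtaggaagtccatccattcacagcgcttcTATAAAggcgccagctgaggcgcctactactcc
Fosb, chr7:19310046-19310295, minus strand: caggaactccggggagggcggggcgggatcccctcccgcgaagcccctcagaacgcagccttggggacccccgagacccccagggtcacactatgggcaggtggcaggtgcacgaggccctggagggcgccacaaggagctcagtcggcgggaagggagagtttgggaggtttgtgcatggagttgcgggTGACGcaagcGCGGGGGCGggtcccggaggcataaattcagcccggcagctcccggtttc
Junb, chr8:84978749-84978998, minus strand: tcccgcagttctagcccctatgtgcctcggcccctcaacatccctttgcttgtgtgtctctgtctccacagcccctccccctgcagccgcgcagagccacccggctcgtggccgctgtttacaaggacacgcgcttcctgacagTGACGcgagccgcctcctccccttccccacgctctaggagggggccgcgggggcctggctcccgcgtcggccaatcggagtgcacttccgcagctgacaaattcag
Dusp1, chr17:26508473-26508722, minus strand: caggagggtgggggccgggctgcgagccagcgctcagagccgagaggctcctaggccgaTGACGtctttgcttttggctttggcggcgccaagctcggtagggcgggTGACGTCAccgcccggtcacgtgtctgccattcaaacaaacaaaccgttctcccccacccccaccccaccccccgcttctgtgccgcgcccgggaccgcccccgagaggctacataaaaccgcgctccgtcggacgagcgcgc
Klf6, chr13:5861239-5861488, plus strand: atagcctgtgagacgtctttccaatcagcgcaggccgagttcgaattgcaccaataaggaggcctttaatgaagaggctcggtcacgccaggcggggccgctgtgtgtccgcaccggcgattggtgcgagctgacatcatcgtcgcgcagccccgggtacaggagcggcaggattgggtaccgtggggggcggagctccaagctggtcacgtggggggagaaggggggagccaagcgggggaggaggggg
The full CRE of Dusp1 begins 143 bases before its start and was found in 1.55% of all 32851 windows of this length. A half-site was present in 17.8% of all windows and in those of 6 of the 8 members, Egr2, Fos, Fosb, Junb, Atf3 and Dusp1. Dusp1 has one 191 bases before its start, apart from the CRE, and the CRE itself holds one on each strand. The half-site was added after these windows had been read. The TATA box of Fos begins 33 bases before the start (12.4% of all windows) and the EGR motif of Fosb begins 50 bases before it (2.57%). A CArG box, the site of SRF, was found before 4 of the 5 listed starts of Egr2 and in 1.47% of all windows. AP-1 was found in 0 of the 8 members and in 4.46% of all windows. A match is a run of letters and was not tested as a site in use.

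**Figure D1:**
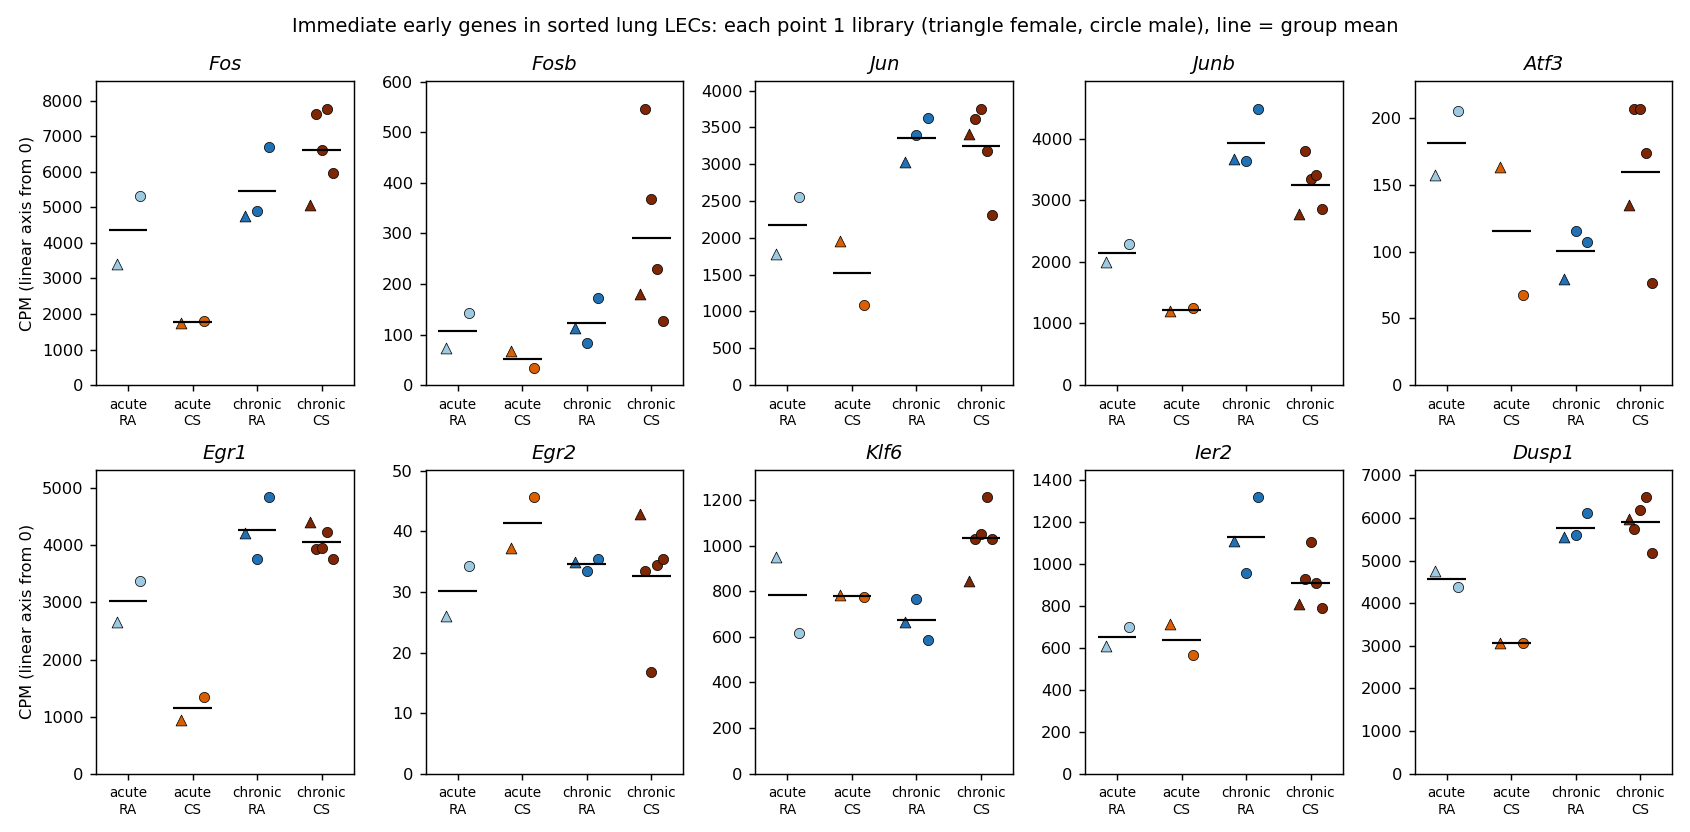
CPM (vertical axis, linear from 0) of each immediate early gene in the 12 libraries, by group (horizontal axis). Each point is 1 library, triangles are female and circles male, and lines are group means. For Egr1 the acute CS libraries sit at 947 and 1344 CPM, below the 10 others, and for Klf6 the 5 chronic CS libraries sit between 843 and 1211 CPM, above the chronic RA libraries.

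After acute CS, 9 of the 10 genes had a negative log2 fold change and Egr2 had a positive one. The median was -0.61 against 0.04 over all genes tested. In 5 genes (Egr1, Fos, Fosb, Junb and Dusp1) both acute CS libraries were below both acute RA libraries, and in Egr2 both were above. With 2 libraries against 2, 49.9% of all genes lay apart in this way, so such a separation alone says little.

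Egr1 (ENSMUSG00000038418, chromosome 18 of GRCm38, 34859823 to 34864984, plus strand) encodes a growth factor and flow responsive zinc finger factor. In acute RA it was at 2653 CPM (F) and 3384 CPM (M), and after smoke at 947 CPM (F) and 1344 CPM (M). The log2 fold change was -1.40 (standard error, SE, 0.19), or 2.64-fold lower. The acute CS levels were the lowest of all 12 libraries, since the chronic RA libraries had 3757, 4218 and 4840 CPM and the chronic CS libraries 3758 to 4404 CPM.

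Of the FOS family, Fos (ENSMUSG00000021250) was at 3413 CPM in acute RA F and 5310 in acute RA M, and at 1739 and 1790 in acute CS F and M. The log2 fold change of Fos was -1.31 (SE 0.25). Its paralogue Fosb (ENSMUSG00000003545) was at 73.7 and 142 CPM in acute RA F and M and at 67.9 and 34.0 CPM in acute CS F and M. The gap between the female libraries of Fosb was small, and the log2 fold change of -1.08 carried a SE of 0.63 and lay between -1.66 and -0.57 when each acute library was left out.

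Of the JUN family, Junb (ENSMUSG00000052837) was at 1992 and 2291 CPM in acute RA F and M and at 1206 and 1245 in acute CS F and M, a log2 fold change of -0.81 (SE 0.17). Jun (ENSMUSG00000052684) was at 1785 and 2553 CPM in acute RA F and M and at 1956 and 1085 CPM in acute CS F and M. The groups of Jun overlapped, with the female CS library above the female RA library and the male one below (log2 fold change -0.51, SE 0.28). Atf3 (ENSMUSG00000026628), a stress-induced partner of JUN proteins, showed the same layout. It was at 157 and 205 CPM in acute RA F and M and at 163 and 67.4 CPM in acute CS F and M (log2 fold change -0.65, SE 0.46). Both differences depended on single smoke libraries: without acute CS M they were -0.15 for Jun and -0.15 for Atf3, and without acute CS F they were -1.0 and -1.42.

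Dusp1 (ENSMUSG00000024190), which encodes the MAPK phosphatase, was at 4755 and 4372 CPM in acute RA F and M and at 3058 and 3061 CPM in acute CS F and M. Its log2 fold change was -0.58 (SE 0.12). Egr2 (ENSMUSG00000037868), a relative of Egr1, went the other way on a low level, from 26.0 and 34.3 CPM to 37.2 and 45.6 CPM in F and M (log2 fold change 0.46, SE 0.33). That value lay between 0.27 and 0.64 when each acute library was left out. Klf6 (ENSMUSG00000000078), a vascular injury response factor gene, and Ier2 (ENSMUSG00000053560) had overlapping groups. Klf6 was at 948 and 617 CPM in acute RA F and M and at 783 and 773 CPM in acute CS F and M. For Ier2 the values were 610 and 697 CPM in acute RA F and M and 714 and 565 CPM in acute CS F and M. Their log2 fold changes were -0.01 (SE 0.21) and -0.03 (SE 0.19), and ranged from -0.32 to 0.33 and from -0.21 to 0.13 when each acute library was left out.

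Markers of the sorted cell type moved in the same libraries. Prox1 fell from 2358 ± 168 to 1152 ± 156 CPM (SD, n = 2 each; log2 fold change -1.03, adjusted p = 0.00797 from edgeR, as are all adjusted p-values where DESeq2 is not named) and the lymphatic VEGF receptor gene Flt4 from 2947 ± 327 to 1374 ± 303 CPM (SD, n = 2 each; log2 fold change -1.10, adjusted p = 0.0204). Of 8 lymphatic markers, 7 had a negative log2 fold change, with a summed level of 14170 to 15907 CPM in acute RA and 6142 to 9322 CPM in acute CS. All 8 leukocyte markers had a positive one, with summed levels of 235 to 241 CPM in acute RA and 1383 to 1884 CPM in acute CS, and the sum of 8 blood endothelial markers went from 2535 to 3414 CPM to 5879 to 5913 CPM. Sums for 8 alveolar macrophage markers were 687 to 774 CPM in acute RA and 2111 to 2216 CPM in acute CS, and for 8 mesenchymal markers 131 to 205 CPM and 623 to 989 CPM. Positive log2 fold changes were found for 7 of 8 alveolar macrophage (median 4.09), 8 of 8 mesenchymal (2.27) and 8 of 8 blood endothelial markers (2.40). Alveolar epithelial markers (751 to 1069 CPM against 213 and 6391 CPM) and erythroid markers (37.7 to 69.9 CPM against 10.6 and 697 CPM) overlapped. All 8 epithelial and all 5 erythroid markers still had positive log2 fold changes. No marker of these lists was at or under 3 counts in all 12 libraries. In bulk RNA, fewer LECs and less RNA per LEC cannot be told apart, and which cells the transcripts of the 10 genes came from was not tested.

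The members were also set against Prox1 instead of the library total. Because Prox1 fell, this scale raises every gene alike, and over all genes the median difference, acute CS minus acute RA in log2 of the ratio to Prox1, was 1.08. For the 10 genes it was 0.36. The distance between these medians carries nothing beyond the CPM values, since all genes are shifted alike. On this scale 76.8% of all genes were higher and 1.5% lower without overlap of the groups. Egr1 was lower without overlap, by a difference of -0.37, and Fos (-0.23) and Fosb (-0.05) overlapped. Junb (0.24), Dusp1 (0.46), Ier2 (1.0), Klf6 (1.06) and Egr2 (1.5) were higher without overlap, as most genes were. Jun (0.49) and Atf3 (0.26) overlapped. Against the median of the 8 lymphatic markers in place of Prox1, Junb was lower without overlap, at 0.55 to 1.19 in acute CS and 1.29 to 1.40 in acute RA (log2). Fos (1.07 to 1.72 against 2.07 to 2.61) and Egr1 (0.66 to 0.84 against 1.70 to 1.96) were also lower. Egr2 (-4.22 to -3.83 against -4.97 to -4.66) was higher. The other members overlapped, so the placing of Junb, Fos, Dusp1, Ier2 and Klf6 depended on the scale. Prox1 was taken as the scale after the values had been seen, and it is itself a changed gene, so these ratios describe unequal change and not stability of any gene.

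**Figure D2:**
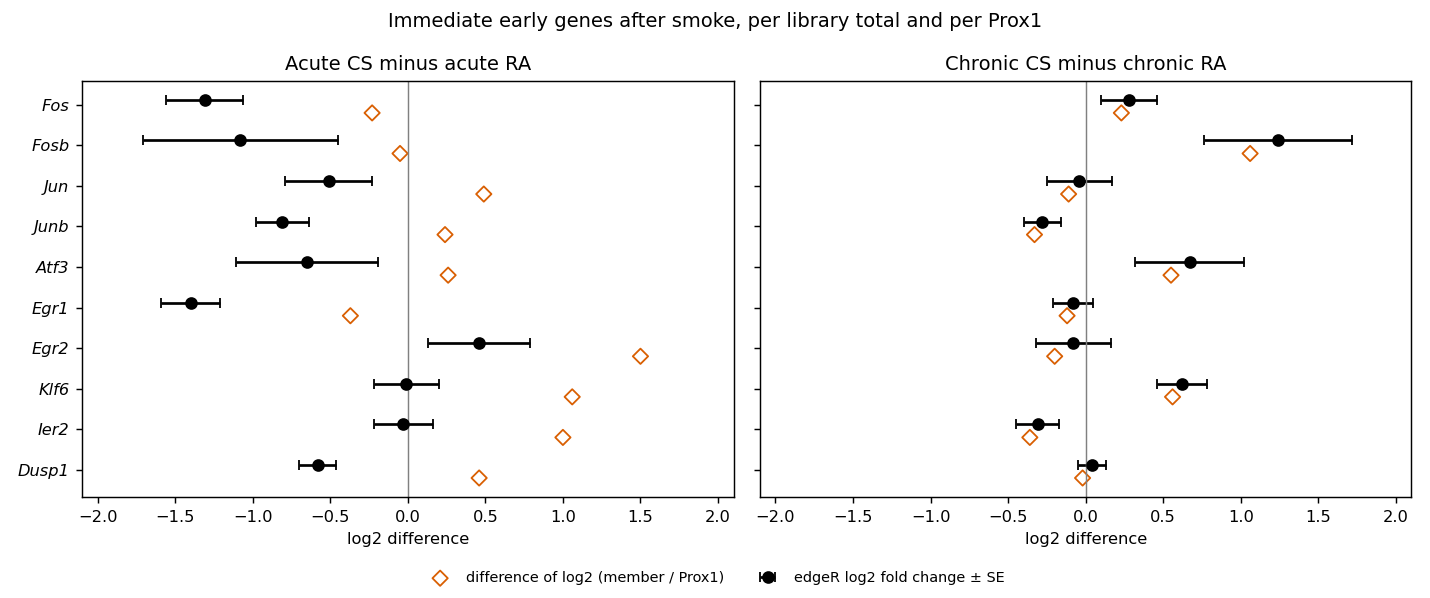
Log2 difference between smoke and room air (horizontal axis) for each immediate early gene, for acute (left) and chronic exposure (right). Filled circles are edgeR log2 fold changes with bars of 1 standard error, and open diamonds are differences in log2 of the ratio to Prox1. In the acute panel the diamonds lie to the right of the circles, with medians of 0.36 and -0.61, as the fall of Prox1 itself shifts them, while in the chronic panel they lie close together.

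The chronic comparison was tested, since the rule for the set gives a direction for the acute one only. The set was still chosen with earlier results of all 12 libraries known, and the rule names Klf6 without saying on which values, so the values of Klf6 below are a description and its p-values are not independent evidence. Of the 10 genes, 0 passed edgeR's quasi-likelihood test at an adjusted p under 0.05 (Benjamini-Hochberg over 21440 genes), where 0% of all genes passed. At an unadjusted p under 0.05 there were 4 of the 10 (Klf6 and Fosb with positive, Junb and Ier2 with negative log2 fold changes), against 10.9% of all genes. DESeq2 called 1 of them, Klf6, against 2.93% of the genes to which it gave an adjusted p. The median log2 fold change was 0.00 and that of all genes 0.01. In 1 of the 10, Klf6, the groups did not overlap, against 9.41% of all genes.

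Klf6 was at 664, 766 and 588 CPM in chronic RA F, M1 and M2, and at 843, 1027, 1050, 1211 and 1028 CPM in chronic CS F, M1, M2, M3 and M4. The lowest smoke library was thus above the highest control. The log2 fold change was 0.62 (SE 0.16), or 1.53-fold, with an adjusted p of 0.261 from edgeR and 0.00739 from DESeq2. Over 21 other settings the log2 fold change of Klf6 lay between 0.53 and 0.73 and the adjusted p between 0.00739 and 0.682. It was 0.55 with chronic CS F, M1 and M2, the shallower libraries, and 0.73 with M3 and M4.

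Fosb was at 113, 83.9 and 173 CPM in chronic RA F, M1 and M2. In chronic CS it was at 181, 547, 368, 230 and 127 CPM in F, M1, M2, M3 and M4. Of the smoke libraries, 4 were above every control, and M4 was below chronic RA M2. The log2 fold change was 1.24 (SE 0.48, unadjusted p = 0.025 and adjusted p = 0.401 from edgeR). With F, M1 and M2 alone it was 1.59, and with M3 and M4 alone it was 0.53, so the size of the difference depended on which smoke libraries were used. Depth moved with that division, at 18821438 to 22885446 counts in F, M1 and M2 and 45436986 to 47494020 in M3 and M4, and its part was not tested.

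Junb and Ier2 had small negative differences that did not pass. Junb was at 3673, 3633 and 4489 CPM in chronic RA F, M1 and M2 and at 2785, 3795, 3346, 3418 and 2865 CPM in chronic CS F, M1, M2, M3 and M4, where only M1 reached the control range (log2 fold change -0.28, SE 0.12, adjusted p = 0.44). Ier2 was at 1107, 958 and 1317 CPM in chronic RA F, M1 and M2 and at 807, 929, 1102, 910 and 792 CPM in chronic CS F, M1, M2, M3 and M4. Its log2 fold change was -0.31 (SE 0.14, adjusted p = 0.455). Atf3, at 79.2, 115 and 107 CPM in chronic RA F, M1 and M2, was at 135, 207, 207, 174 and 76.5 CPM in chronic CS F, M1, M2, M3 and M4. M4 was the lowest of these 8 libraries and the 4 other smoke libraries were above every control (log2 fold change 0.67, SE 0.35, adjusted p = 0.5).

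Fos, Egr1, Jun, Dusp1 and Egr2 had overlapping groups. Fos was at 4750, 4896 and 6703 CPM in chronic RA F, M1 and M2 and at 5077, 7624, 6624, 7779 and 5962 CPM in chronic CS F, M1, M2, M3 and M4 (log2 fold change 0.28, SE 0.18, adjusted p = 0.597). Egr1, the gene with the largest acute difference, had a chronic log2 fold change of -0.08 (SE 0.13, adjusted p = 0.868), with 4404, 3932, 3948, 4234 and 3758 CPM in chronic CS F, M1, M2, M3 and M4. Whether its acute and chronic differences differ from each other was not tested. Jun was at 3028 to 3633 CPM in chronic RA and 2311 to 3755 CPM in chronic CS, Dusp1 at 5550 to 6118 and 5181 to 6482 CPM, and Egr2 at 33.4 to 35.4 and 16.8 to 42.8 CPM. Log2 fold changes of Egr1, Egr2, Jun and Dusp1 lay between -0.08 and 0.04, and the sign of each turned under other settings.

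Markers of other cells were read in the chronic libraries as well. Summed alveolar epithelial markers lay at 248 to 468 CPM in chronic RA and 919 to 4585 CPM in chronic CS, with all 8 positive, and mesenchymal markers at 117 to 145 and 205 to 334 CPM, with 7 of 8 positive. Lymphatic markers (18966 to 21605 against 14075 to 20298 CPM), leukocyte markers (149 to 222 against 143 to 382 CPM), blood endothelial markers (3080 to 3181 against 2321 to 3403 CPM), alveolar macrophage markers (597 to 677 against 614 to 987 CPM) and erythroid markers (196 to 432 against 9.69 to 349 CPM) overlapped. Of these, 7 of 8 leukocyte, 7 of 8 blood endothelial and 7 of 8 alveolar macrophage markers were positive. Their median log2 fold changes were 0.77, 0.59 and 1.51. For lymphatic markers 4 of 8 were positive (median -0.09), and for erythroid markers 0 of 5 (median -1.44). Prox1 had a log2 fold change of 0.06 (adjusted p = 0.883). On the ratio to Prox1, Klf6 differed by 0.56 and Fosb by 1.06 between chronic CS and chronic RA, and both overlapped. The part of the other cells in these values was not tested.

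Chronic RA was also set against acute RA. This comparison shares the acute RA libraries with the acute one, so the members are given as values with no test. Higher in all 3 chronic RA than in both acute RA libraries were Junb (log2 fold change 0.88), Ier2 (0.79), Jun (0.63), Egr1 (0.50) and Dusp1 (0.34), and Atf3 was lower in all (-0.85). Such a separation was seen in 34.7% of all genes. The median of the 10 was 0.33 against 0.00 for all genes. By edgeR, 0% of all genes were called and 7.01% had an unadjusted p under 0.05, and DESeq2 called 253 genes. Age, exposure time and pooling of mice cannot be told apart here. Markers of several cell types lay apart between the same libraries, with summed levels in chronic RA against acute RA of 18966 to 21605 against 14170 to 15907 CPM for lymphatic, 149 to 222 against 235 to 241 CPM for leukocyte and 597 to 677 against 687 to 774 CPM for alveolar macrophage markers. Alveolar epithelial markers were at 248 to 468 against 751 to 1069 CPM and erythroid markers at 196 to 432 against 37.7 to 69.9 CPM, while blood endothelial and mesenchymal markers overlapped. Their part in the members' values was not tested.

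Within groups the 10 genes differed in how tightly they were held. The SD of log2 CPM around group means, pooled over the 4 groups, was 0.10 for Dusp1, and 2.2% of genes had a smaller one, among those whose mean log2 CPM reached 3. Fosb had an SD of 0.73 (96.3% of genes smaller) and Atf3 an SD of 0.56 (91.1% smaller), against a median of 0.26. Fosb spanned 127 to 547 CPM among the 5 chronic CS libraries, and Egr1 only 3758 to 4404 CPM. Single libraries stood high or low for many members at once. Chronic CS M4 had the lowest value of its group for 6 of the 10 genes, chronic RA M2 the highest for 8 and acute RA M the higher for 8.

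Part of the set moved together within groups. After subtraction of group means, Pearson's r was computed over 12 libraries for all 45 pairs, as a description, since the libraries share depth and handling and a group of 2 gives mirrored deviations. The highest values were 0.92 for Jun with Atf3 (Spearman's rho 0.84, and r = 0.82 without the 2 libraries farthest from the median of Jun) and 0.90 for Fos with Junb (rho 0.88, and r = 0.89 without the 2 farthest on Fos). Fosb had 0.82 with Junb (rho 0.77, and r = 0.69 without the 2 farthest on Fosb) and 0.82 with Ier2 (rho 0.90, and r = 0.95 without the 2 farthest on Fosb). The median over the pairs was 0.29, with 12 above 0.5 and 16 below 0. The lowest was -0.60, for Egr1 with Klf6 (rho -0.66). Against the mean of the other 9 genes, r was 0.83 for Junb, 0.80 for Fosb, 0.73 for Fos, 0.68 for Atf3, 0.67 for Ier2, 0.60 for Jun and 0.47 for Dusp1. It was 0.11 for Egr1, -0.34 for Klf6 and -0.35 for Egr2. Dusp1 had no pair above 0.49.

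**Figure D3:**
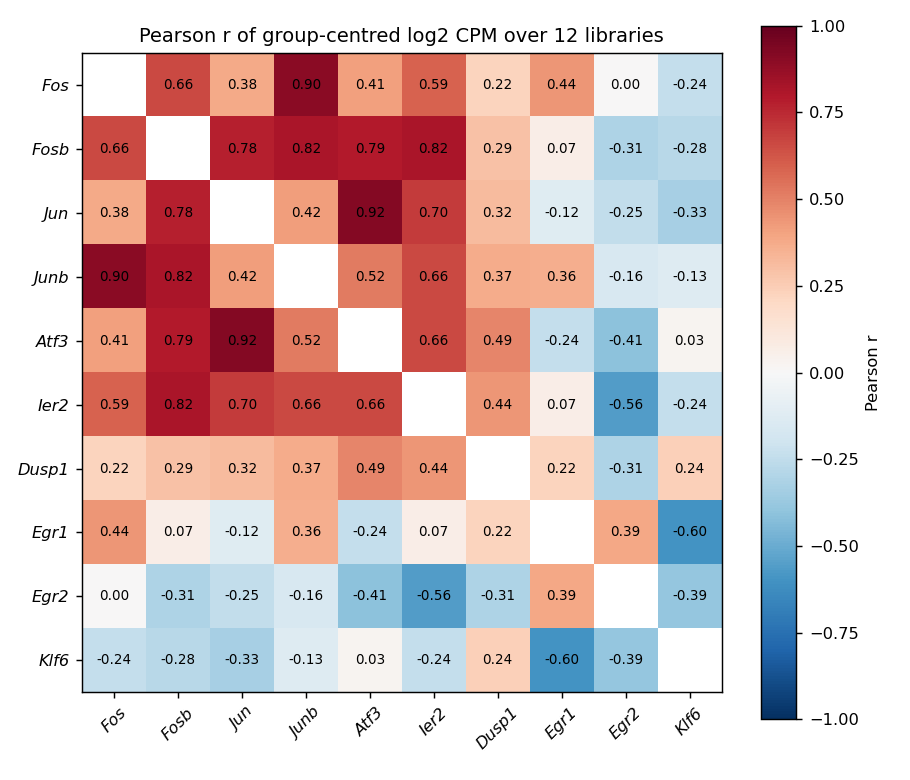
Pearson's r between each pair of immediate early genes (rows and columns), from log2 CPM over 12 libraries after subtraction of group means. Colour runs from -1 (blue) to 1 (red). Fos, Fosb, Jun, Junb, Atf3 and Ier2 form the red block, with 0.92 for Jun with Atf3 and 0.90 for Fos with Junb, while Egr2 and Klf6 are mostly blue.

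Genes outside the set with a like pattern were named by the same measure, r with the mean standardized deviation of the 10 genes over 12 libraries. Of 9982 genes compared, 0.761% had an r above 0.7, and the median was -0.09. The highest 10 were Sav1 (0.96), Maip1, Cmah, Arl4c, Pdcd11, Kif13a, Lax1, Jund (0.87), Gas7 (0.86) and Tbx2 (0.86). Jund, a further JUN family gene, was the only gene of the wider immediate early list among them. Of 41 other immediate early genes compared, 2 had an r above 0.7, with a median of 0.30. Without subtraction of group means, only Gas7 (0.94) and Jund (0.89) were again among the highest 10.

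A wider list of 49 other immediate early genes, of which 48 were tested and Npas4 was not, had 33 positive and 15 negative log2 fold changes after acute CS. At an adjusted p under 0.05 from edgeR, 5 of 48 rose and 0 fell, against 2.75% and 0.723% of all genes. DESeq2 called 13 higher and 2 lower, against 10.9% of all genes in either direction. At an unadjusted p under 0.05 from edgeR 14 were higher and 4 lower, against 15.7% of all genes in either direction. The median log2 fold change was 0.28, against 0.04 for all genes. Leukocyte and macrophage markers were higher in the same libraries despite the gate against blood lineages, and their part in these counts was not tested. The number of calls moved with single libraries, in this list and in all genes alike. Without acute RA F 0 of 48 and 79 of all genes were called, without acute RA M 0 and 3, without acute CS F 1 and 175, and without acute CS M 8 and 858. It was 3 of 48 without any 1 of the chronic RA libraries and 8 without chronic CS M2. The list's median was 0.26 without acute RA F, 0.34 without acute RA M, 0.18 without acute CS F and 0.40 without acute CS M.

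The genes that rose were as follows. Of the 5, Tnfaip3 was the only one also called with the replicate block (73 of all genes called) and with only the groups compared (139 of all genes called). Tnfaip3, which encodes the NF-κB inhibitor A20, was at 33.5 and 38.4 CPM in acute RA F and M and at 278 and 178 CPM in acute CS F and M (log2 fold change 2.66, SE 0.34, adjusted p = 0.004). Nr4a1, an orphan nuclear receptor gene, was at 135 and 163 CPM in acute RA F and M and at 687 and 349 CPM in acute CS F and M (log2 fold change 1.80, SE 0.38, adjusted p = 0.0248). In each of these genes the female smoke library was the higher. Ier3, a survival gene, had a log2 fold change of 1.76 (adjusted p = 0.0154), Sgk1, a serum-induced kinase gene, 1.14 (adjusted p = 0.0288), and Hbegf, an EGF receptor ligand gene, 2.26 (adjusted p = 0.039, at 2.42 to 25.8 CPM).

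Of the 8 genes of this list named whatever their values, Nr4a1 passed as above, and the 7 others did not pass with edgeR or with DESeq2 after acute CS. Outside that rule, and named after its values were seen, Dusp2, a relative of Dusp1, had a log2 fold change of -0.84 and was called lower by DESeq2 and not by edgeR, though edgeR called it without the filter on low counts and without chronic CS M2. The other gene DESeq2 called lower was Myc, a growth regulator gene, with a log2 fold change of -0.99 from edgeR, which did not call it. Jund was at 265 ± 65.1 CPM in acute RA and 158 ± 13.4 CPM in acute CS (SD, n = 2 each; log2 fold change -0.75, adjusted p = 0.207). For the EGR family gene Egr3 the log2 fold change was 1.07 (adjusted p = 0.504), for the FOS family gene Fosl2 0.43 (0.761), and for the mRNA decay factor gene Zfp36 0.13 (0.931). Btg2, an antiproliferative gene, had -0.19 (0.832), and the flow responsive factor genes Klf4 and Klf2 had 0.50 (0.444) and 0.03 (0.975).

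**Figure D4:**
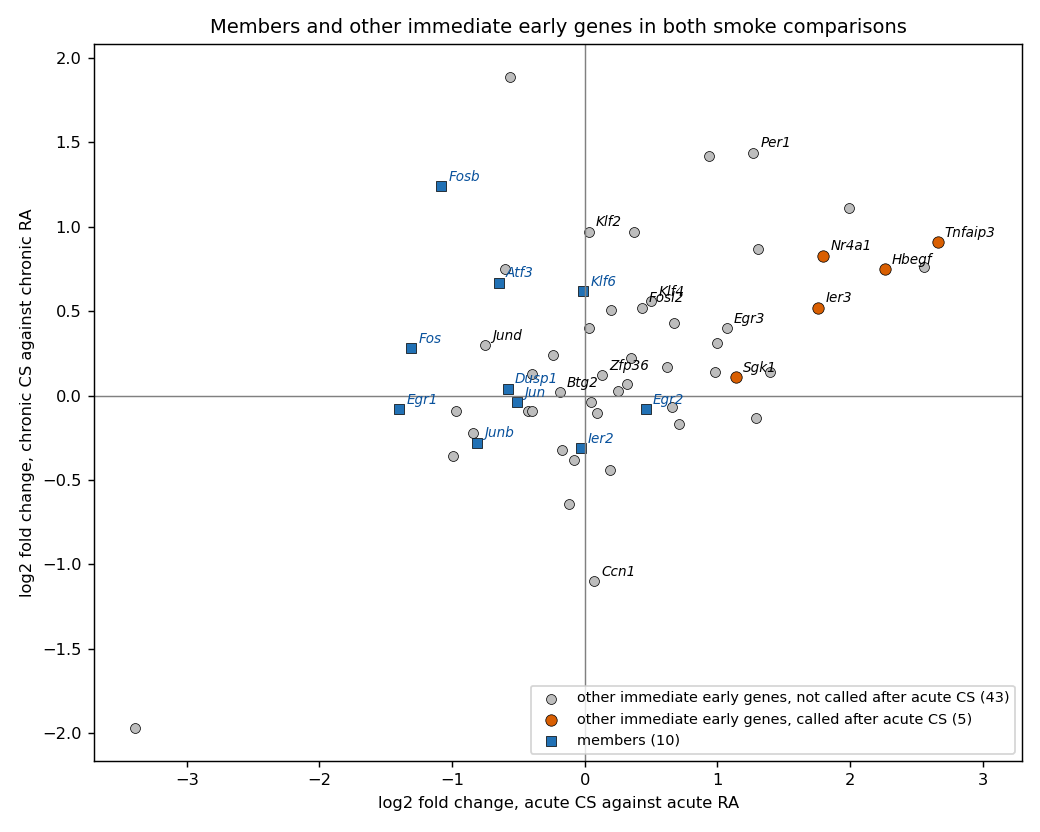
Log2 fold change after acute CS (horizontal axis) and after chronic CS (vertical axis) for the 10 members (blue squares) and 48 other immediate early genes (circles, orange where called after acute CS). Names are given for members and for genes named by a fixed rule. Tnfaip3, Nr4a1, Hbegf, Ier3 and Sgk1 lie to the right, between 1.14 and 2.66, whereas Egr1 and Fos lie to the left at -1.40 and -1.31.

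After chronic CS, 0 of the 48 passed with edgeR, 12 had an unadjusted p under 0.05, against 10.9% of all genes, and DESeq2 called 6, against 2.93%. Those called by DESeq2 were Klf2, Tnfaip3, Per1, Plk3 and Sik1, all higher, and Ccn1, which was lower. By edgeR the smallest p-values were those of Klf2, Per1 and Ccn1, and Klf2 was called without the filter on low counts. Klf2, the shear stress factor gene of endothelium, was at 1425, 1334 and 1127 CPM in chronic RA F, M1 and M2 and at 2549, 2647, 2758, 2826 and 1934 CPM in chronic CS F, M1, M2, M3 and M4, with no overlap (log2 fold change 0.97, SE 0.15, adjusted p = 0.145). Per1, a clock gene, was at 9.09 to 12.8 CPM in chronic RA and 21.2 to 36.1 CPM in chronic CS (log2 fold change 1.44, adjusted p = 0.172). Ccn1, which encodes a matricellular protein, was at 1285 to 1310 CPM in chronic RA and 510 to 792 CPM in chronic CS (log2 fold change -1.10, adjusted p = 0.181). Ccn1 was at 419 and 627 CPM in acute RA and 395 and 699 CPM in acute CS, so that the 3 chronic RA libraries stood above the 9 others. Between the room air controls, 0 of 48 passed with edgeR, 9 had an unadjusted p under 0.05, against 7.01% of all genes, and DESeq2 called 3, against 1.55%.

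Genes upstream of the set, the SRF, ELK and CREB factors with their coactivators and the MAPK cascade, numbered 24. After acute CS edgeR called 3 higher and 1 lower, against 3.47% of all genes, and DESeq2 called 5, against 10.9%. Lymphatic markers were lower and leukocyte markers higher in the same libraries (Prox1 log2 fold change -1.03, Ptprc 3.48), and their part in these calls was not tested. Those higher were Mrtfa, an actin-regulated SRF coactivator gene (log2 fold change 1.79, adjusted p = 0.0136), Mapk3, which encodes the kinase ERK1 (0.97, adjusted p = 0.0144), and Rps6ka1, a kinase gene downstream of ERK (0.95, adjusted p = 0.0232). Elk3, an SRF partner gene of endothelium, fell from 897 ± 66.5 to 503 ± 106 CPM (SD, n = 2 each; log2 fold change -0.83, adjusted p = 0.0208). After chronic CS edgeR called 0 of 24, with 4 at an unadjusted p under 0.05, against 10.9% of all genes, and DESeq2 called 1, against 2.93%. Mapk3 then had a log2 fold change of -0.47 (adjusted p = 0.288), Srf of -0.58 (0.347) and Mrtfb of 0.50 (0.381).

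Partner and corepressor genes of AP-1 and EGR numbered 15, of which 3 (Fosl1, Fosl2 and Jund) are also in the wider list. By edgeR 0 were called after acute CS, with 5 at an unadjusted p under 0.05 against 15.7% of all genes, and 0 after chronic CS, with 3 against 10.9%, and DESeq2 called 0 in both. The smallest p-values were those of Jund, Atf4 (log2 fold change -0.41, adjusted p = 0.238) and Maf (-1.0, 0.243) after acute CS. After chronic CS they were those of Batf2 (-0.79, 0.312) and the EGR corepressor genes Nab2 (-0.57, 0.35) and Nab1 (-0.39, 0.411).

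Heat shock genes, a second family that digestion and handling are known to induce, were set beside the 10. After acute CS 0 of 12 passed with edgeR, 0 had an unadjusted p under 0.05 and DESeq2 called 0, against 3.47%, 15.7% and 10.9% of all genes. Of the 12, 11 had a negative log2 fold change, with a median of -0.34 against 0.04 for all genes, and 4 were lower without overlap, where 49.9% of all genes lay apart in either direction. After chronic CS 0 passed with edgeR, 2 had an unadjusted p under 0.05 and DESeq2 called 0, against 0%, 10.9% and 2.93% of all genes. Hspa1b, an inducible HSP70 gene, was at 163, 1839 and 190 CPM in chronic RA F, M1 and M2 and at 32.6 to 367 CPM in chronic CS, and Hspa1a was at 148 CPM in chronic RA M1 against 15.9 and 16.2 CPM in the other 2 controls. Reads that match both of these near-identical copies cannot be placed on a single copy, so the level of each is uncertain. Chronic RA M1 was the highest library for both.

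Some members overlap other genes on the opposite strand, and how strand was handled in counting is not stated. Prdx2 shares 173 exonic bases with Junb (63974 counts of Prdx2 over the 12 libraries against 1257667 of Junb). Junos shares 232 with Jun (701 against 1214607 counts) and Ergic1 shares 11 with Dusp1 (48756 against 2311378 counts). Reads from those shared bases cannot be told apart if strand was not used.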

How the data were processed

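RNA of sorted lung LECs was sequenced in 12 libraries after SMART-Seq v4 amplification. The authors trimmed reads with Skewer, checked them with FastQC 0.11.9 and Minion, aligned them with STAR to GRCm38 and deposited whole-number read counts per Ensembl gene, not normalized. The annotation release and strand setting are not given in the sources used here. Totals ranged from 18821438 to 56998590 counts per library. Counts carry no molecular identifiers, and 3 counts were taken as the floor, for counting error only.

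Identifiers were named from GENCODE M21 (52489 of 52636 matched). After edgeR's filter on expression 21440 genes were fitted across all 12 libraries by group (edgeR 4.0.16, R 4.3.3, TMM, quasi-likelihood F-test, genome-wide Benjamini-Hochberg adjustment, limit 0.05). Standard errors are the log2 fold change divided by the root of F. Log2 CPM used a prior count of 2. FPKM used GENCODE exon unions, and promoters came from RefSeq. DESeq2 1.42.0, library-size scaling, no filter, only the groups compared, sex, replicate block, robust estimation, leaving out each library, 2 subsets of chronic CS and, added after the data were seen, scaling to Prox1 were the alternatives. Ratios to the median of the lymphatic markers were read as well.

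The members, gene lists and markers were chosen with earlier results of these data known. Named are all members, fixed relatives, up to 6 genes per list, direction and comparison with the smallest p among those called or else 3, and the 10 genes most like the members. Replicates are separate libraries by their labels, so p-values measure the spread between libraries. That spread was estimated over all 12 libraries, so the acute p-values also rest on the spread between the single-mouse chronic libraries. The 147 identifiers without a name held at most 0.011% of counts.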

Additional observations from a re-analysis of the deposited data

Results flagged for a closer look

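For Fosb, all 5 chronic CS libraries were above the mean of their room air controls (log2 fold change 1.24) and both acute CS libraries were below theirs (log2 fold change -1.08). That opposite placing drew attention to it, and the difference between the exposure lengths was not tested. Over the other settings the chronic value lay between 0.53 and 1.59. Egr2 in chronic CS M2, at 16.8 CPM against 33.5 to 42.8 CPM in the other 4, stood far from its group on log2 CPM (Dixon's ratio 0.74, critical value 0.71) and not on CPM (0.64). The 9 other members had no such library among the 5 of chronic CS on either scale, and smaller groups were not examined. Chance gives about 1 such value in 20 groups.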

How the results depend on the processing

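Calls depended strongly on the settings. Genes called after acute CS numbered 745 with all groups in the fit, 139 with only the groups compared, 73 with the replicate block, 1963 with DESeq2 and 3 to 973 when each library was left out in turn, with 3 without acute RA M, 79 without acute RA F and 175 without acute CS F. After chronic CS they numbered 0, but 10 without the filter, 527 with DESeq2, 1 with chronic CS F, M1 and M2 only, 16 with M3 and M4 only and 0 to 4 when each library was left out. Between room air controls they numbered 0, but 6 without the filter, 42 with only the groups compared, 253 with DESeq2 and 0 to 2 when each library was left out. The 10 members had 0 calls after chronic CS in these settings and 1, Klf6, with DESeq2. Other immediate early genes called after acute CS numbered 5, but 8 without the filter, 2 with only the groups compared, 1 with the replicate block, 15 with DESeq2 and 0 to 8 when each library was left out. After chronic CS 1 was called without the filter and 6 with DESeq2. The members' acute median of -0.61 lay between -0.89 and -0.36 when each library was left out and was 0.36 relative to Prox1. Signs turned after chronic CS for Egr1 (0.01 with library size, -0.15 to 0.03 when each library was left out), Egr2 (0.02 with chronic CS M3 and M4 only, -0.20 to 0.08), Jun (0.05 with library size, 0.10 with the replicate block, 0.12 with F, M1 and M2 only, -0.10 to 0.06) and Dusp1 (-0.02 relative to Prox1). The cause was not tested. Acute libraries carry no number and were paired by sex for the block, where 2 libraries a group give mirrored deviations and so a single correlation, 0.12. Chronic libraries with the same label (F, M1, M2) had correlations of 0.03 to 0.05 and each correlated best with its own label, which is a hint from the data only, and no member's chronic call changed with the block. The lowest count of a member was 405, for Egr2 in chronic CS M2.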
